A study of Mus musculus with 17 samples.

Results

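The genes that copy DNA and drive cells into S phase were followed in 17 mammary tumors of CUX1 transgenic mice. The list held 43 genes, of which 42 had a probe among the 28786 genes of the array, and Gins2 was not found. A gene was found by its name or by the RefSeq identifier of its probe, and its brightest probe stood for it. Of the 42 genes, 17 had several probes.

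Every tumor arose in an FVB mouse that carried a CUX1 transgene driven by MMTV (mouse mammary tumor virus) sequences, which are active in mammary epithelium, and no tumor came from a mouse without one. The transgene encoded the p75 isoform in 9 tumors and the p110 isoform in 8. By histology, the p75 tumors were 4 adenosquamous carcinomas (p75-47, p75-80, p75-94 and p75-101), 3 solid carcinomas (p75-129, p75-150 and p75-534), 1 adenomyoepithelioma (p75-90) and 1 adenocarcinoma (p75-216). The p110 tumors were 6 solid carcinomas (p110-121, p110-143, p110-225, p110-314, p110-360 and p110-416), 1 adenoma (p110-98) and 1 adenomyoepithelioma (p110-374). The adenoma, the adenocarcinoma and both adenomyoepitheliomas are called the glandular tumors here. Ages of the mice are not given in the sources used here, and a tumor is named by its transgene and its mouse. Epithelial cells were cut out by laser, their RNA was amplified in 2 rounds, and each tumor was hybridized in dye-swapped arrays against 1 amplified mouse reference RNA. All values below are log2 ratios of tumor over reference, so 0 is the level of the reference. A gene is called measured in a tumor when the tumor color was well above background on all of its arrays.

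The study's own figure also sorts the tumors into clusters by the expression of Wnt genes on these same arrays. Its high-Wnt cluster held p75-47, p75-80, p75-94, p110-225 and p110-374. Its low-Wnt cluster held p75-101, p75-150, p75-534, p110-143, p110-314, p110-360 and p110-416. The other 5 tumors formed the medium cluster, where the place of p110-121 was read from the drawn figure. The labels call p110-121 a solid carcinoma, but the legend of that figure does not name it among its tumors. Scans of p75 and of p110 tumors fell in different years, with 0 years holding both, so transgene and year of scanning cannot be told apart.

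Before a cell divides, its genome is copied once. In G1 the origin recognition complex, Cdc6 and Cdt1 load the Mcm2-7 helicase onto DNA, and geminin (Gmnn) blocks further loading once S phase has begun. Cdc45 and the GINS complex then turn the loaded ring into a running helicase, primase and the polymerases α, δ and ε make the new strands, the clamp Pcna and its loader (Rfc1 to Rfc5) hold the polymerases on DNA, and Fen1 and Lig1 join the lagging-strand pieces. Ribonucleotide reductase (Rrm1, Rrm2), Tyms, Tk1 and Dut supply nucleotides. Cyclin E and E2f1 control the step from G1 into S. CUX1 is a homeodomain transcription factor whose p110 isoform is known to be active around the G1 to S transition and to act on replication genes such as that of DNA polymerase α.

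RefSeq promoter sequences (build GRCm38.p6, from 250 bases before to 50 after a transcription start) were found for 35 of the 43 genes, with 41 start sites. Those of Gmnn, Mcm4, Gins1, Gins2, Prim2, Pole, Rfc2 and Ccne2 were not in the table. The words TTTCCCGC, TTTGGCGC, TTTCGCGC and TTTGCCGC, forms of the E2F site searched on both strands with overlaps allowed, were in 13 of 41 windows (31.7%) and in 2.26% of all 32851 windows of the same length. A CCAAT box was in 56.1% against 37.4%, the word ATCGAT or ATCAAT, which Cut proteins can bind, in 9.76% against 8.4%, and TTTGAA or TTCGAA, forms of the cell-cycle homology region, in 14.6% against 19.2%. The shares are descriptions of letters, and no binding was measured. The following 170-base stretches end at the start site and show the E2F words, in capitals, of 4 genes whose values are given below, with overlapping words joined. They are Mcm5 (chr8:75109339-75109508, plus strand), Mcm6 (chr1:128359706-128359875, minus strand), Cdc6 (chr11:98907981-98908150, plus strand) and Pola1 (chrX:93632156-93632325, minus strand).
Mcm5: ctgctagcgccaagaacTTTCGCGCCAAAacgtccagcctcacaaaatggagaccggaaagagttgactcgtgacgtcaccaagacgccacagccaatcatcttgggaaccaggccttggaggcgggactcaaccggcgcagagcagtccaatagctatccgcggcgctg
Mcm6: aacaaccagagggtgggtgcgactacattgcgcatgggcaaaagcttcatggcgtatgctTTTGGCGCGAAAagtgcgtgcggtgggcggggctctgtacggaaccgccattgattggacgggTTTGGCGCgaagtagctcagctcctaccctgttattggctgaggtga
Cdc6: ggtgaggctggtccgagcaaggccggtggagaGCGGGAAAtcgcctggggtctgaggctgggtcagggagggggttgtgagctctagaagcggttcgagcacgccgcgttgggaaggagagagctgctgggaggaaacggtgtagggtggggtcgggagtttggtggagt
Pola1: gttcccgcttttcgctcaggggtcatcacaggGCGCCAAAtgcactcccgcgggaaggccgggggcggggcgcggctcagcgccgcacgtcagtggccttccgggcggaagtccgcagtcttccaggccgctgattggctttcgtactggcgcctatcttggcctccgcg
Mcm5 holds 2 overlapping words from 153 bases before its start, and Mcm6 holds 3, of which the first lies 110 bases before it. Cdc6 and Pola1 hold 1 each, 138 bases before the start. No window of E2f1, Pcna, Rrm2, Tk1, Ccne1 or Mcm2 holds one of these 4 words.

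The labels describe microdissected epithelial cells, and 16 of the 17 tumors carried epithelial keratins. The exception was p110-121, labelled a solid carcinoma. Its Krt8 was -4.32 and its Krt18 -4.91, against lowest values of 0.17 and -0.09 in the other tumors, and 2 of 6 epithelial markers were measured in it against 4 to 6 elsewhere. The macrophage genes Csf1r (5.23) and Lyz2 (7.17) were highest in it. The main values of the comparisons that include p110-121 are therefore also given without it. The tumor color was weak on 4 tumors, with the reference over 4 times as bright: p110-98 (11.8-fold), p110-374 (11.2-fold), p110-225 (8.34-fold) and p110-121 (4.02-fold). In the other 13 tumors this ratio lay between 0.658 and 2.89, and the share of probes well above background ranged from 18.3% to 61.9% over all tumors.

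Of the 42 genes, 20 were measured in all 17 tumors and 33 in at least 13. The 6 genes measured in at most 2 tumors were Orc1, Cdc45, Pola2, Pold2, Rfc3 and Ccne2, and for these the ratio near 0 is not a level. None of the 1596 readings of the genes in the tumor color was saturated, and those of the reference color were not counted. Averaged over the tumors, 33 of the other 36 genes lay below the reference, and 14 did so in all 17 tumors. The exceptions were Prim2 (0.28 ± 0.88, SD, n = 17), Lig1 (0.20 ± 1.84) and E2f1 (1.28 ± 1.53), of which a dimmer probe was below the reference in all 17. The lowest averages were those of Dut (-2.03 ± 0.89), which keeps dUTP out of DNA, and of Cdt1 (-2.02 ± 1.06). The stock reference RNA is made from cell lines, so a value below 0 is a difference from that mixture and not from normal mammary gland.

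The SD of a dye-swapped mean was 0.12 (median of 42 genes), and the SD between tumors of the same transgene and histology was 0.79, with a median ratio of 4.83 and a lowest ratio of 1.14. The first covers only the repeat hybridization of the same amplified RNA. For 32 genes the 17 tumors spanned more than 2 on the log2 scale. Mcm10, a factor needed to start the helicase, spanned 4.48, from -4.30 in p110-143 to 0.17 in p110-314. Mcm2 spanned 2.41 over the 13 tumors in which it was measured, from -1.94 in p110-121 to 0.47 in p75-47.

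The median of the 42 genes put the tumors in an order that crossed the labelled groups. It takes in all 42 genes, measured or not. The number measured ran from 22 in p110-374 and 24 in p110-98 to 41 in p110-314, so the medians do not rest on equal numbers of measured genes. The highest medians were those of p110-314 (-0.22), p75-47 (-0.28) and p75-534 (-0.29), 1 p110 solid, 1 adenosquamous and 1 p75 solid carcinoma. The highest glandular median was -1.08, in p110-98. The lowest were those of p110-360 (-1.93), p110-143 (-1.93) and p110-121 (-1.56). By group, the median was -0.52 ± 0.17 in adenosquamous carcinomas (SD, n = 4), -0.84 ± 0.50 in p75 solid carcinomas (n = 3), -1.33 ± 0.65 in p110 solid carcinomas (n = 6) and -1.27 ± 0.20 in glandular tumors (n = 4). The ranges of the first 3 groups overlapped, and the glandular tumors lay between -1.47 and -1.08, inside the range of the p110 solid carcinomas. These numbers describe RNA per array: fewer cells in cycle and less replication RNA per cell cannot be told apart in bulk samples.

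**Figure D1:**
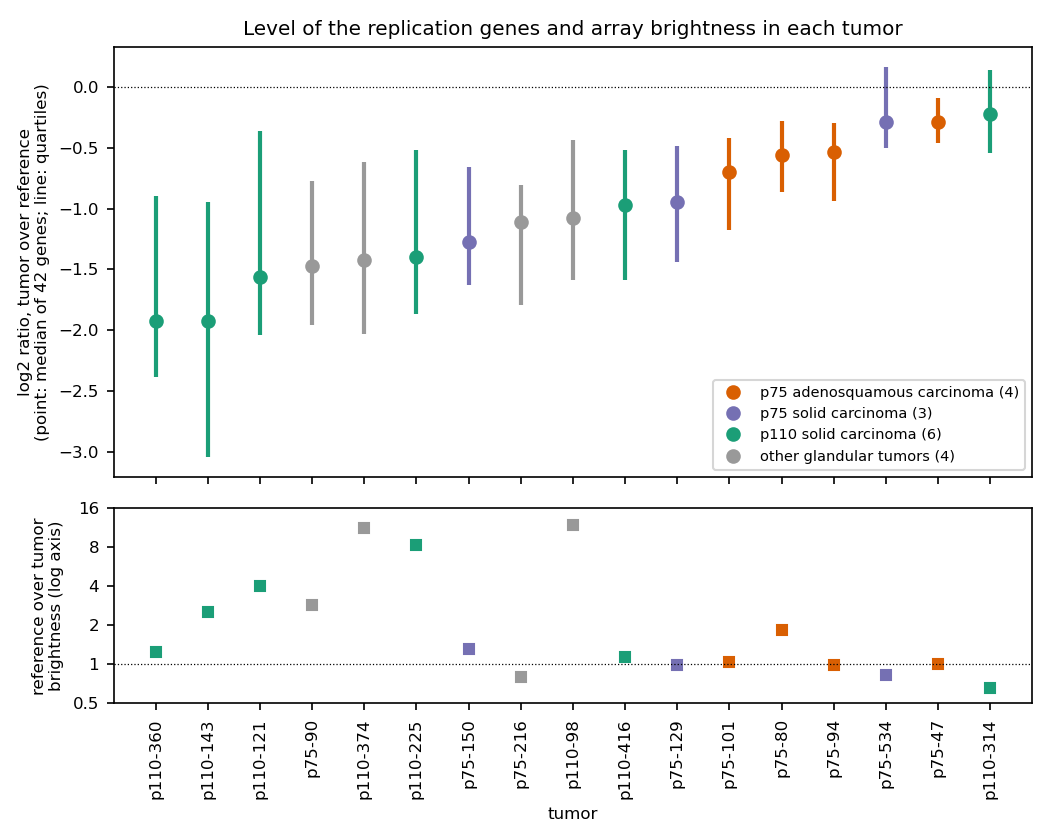
Level of the replication genes in each tumor. The upper panel gives the median log2 ratio over the 42 genes (point) with the quartiles over genes (line), colored by group, and the lower panel the brightness of the reference over that of the tumor color on a log axis. The medians run from -1.93 in p110-360 to -0.22 in p110-314, and p110 solid carcinomas hold both ends.

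Tumors within the p110 solid carcinomas lay far apart. Of the 25 genes measured in all 6, p110-314 was the highest for 21, and the lowest was p110-143 for 9, p110-121 for 7 and p110-360 for 5. Over the 28 genes measured in both p110-314 and p110-143 the median gene differed by 2.13, and 25 were higher in p110-314. Pcna was 0.49 in p110-314, -1.84 in p110-416, -2.20 in p110-360, -2.59 in p110-121, -2.93 in p110-143 and -2.93 in p110-225, so that 1 tumor stood above the rest. Dut was -0.43 in p110-314 and between -3.18 and -1.99 in the other 5, again with a gap. The p75 solid carcinomas were ordered likewise, with p75-534 highest of 3 for 32 of the 33 genes measured in all of them and a median gene 1.16 higher than in p75-150. Among adenosquamous carcinomas p75-47 was highest for 19 of the 32 genes measured in all 4. Markers of fat cells also varied among the solid carcinomas. Their summed tumor-color signal, over 6 genes of which 2 to 5 were measured in a tumor and leptin (Lep) in none, was 4830 scanner units in p110-314 and 4816 in p110-416, and was 258503 in p110-143, 172696 in p110-360, 435877 in p110-225 and 30503 in p110-121, whose replication median was also among the 3 lowest. In the p75 solid carcinomas it was 8938 in p75-534, 35410 in p75-129 and 104699 in p75-150. The 2 orders did not match among the p110 solid carcinomas. There p110-225, with the highest signal, had a replication median of -1.40, above p110-121 (-1.56), p110-143 (-1.93) and p110-360 (-1.93). Nor did they match in the other tumors. The signal was 1005 to 22356 in the glandular tumors, whose replication medians were low, and 322216 in p75-101, whose median was -0.69. The part of these cells in the levels of the replication genes was not tested.

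**Figure D2:**
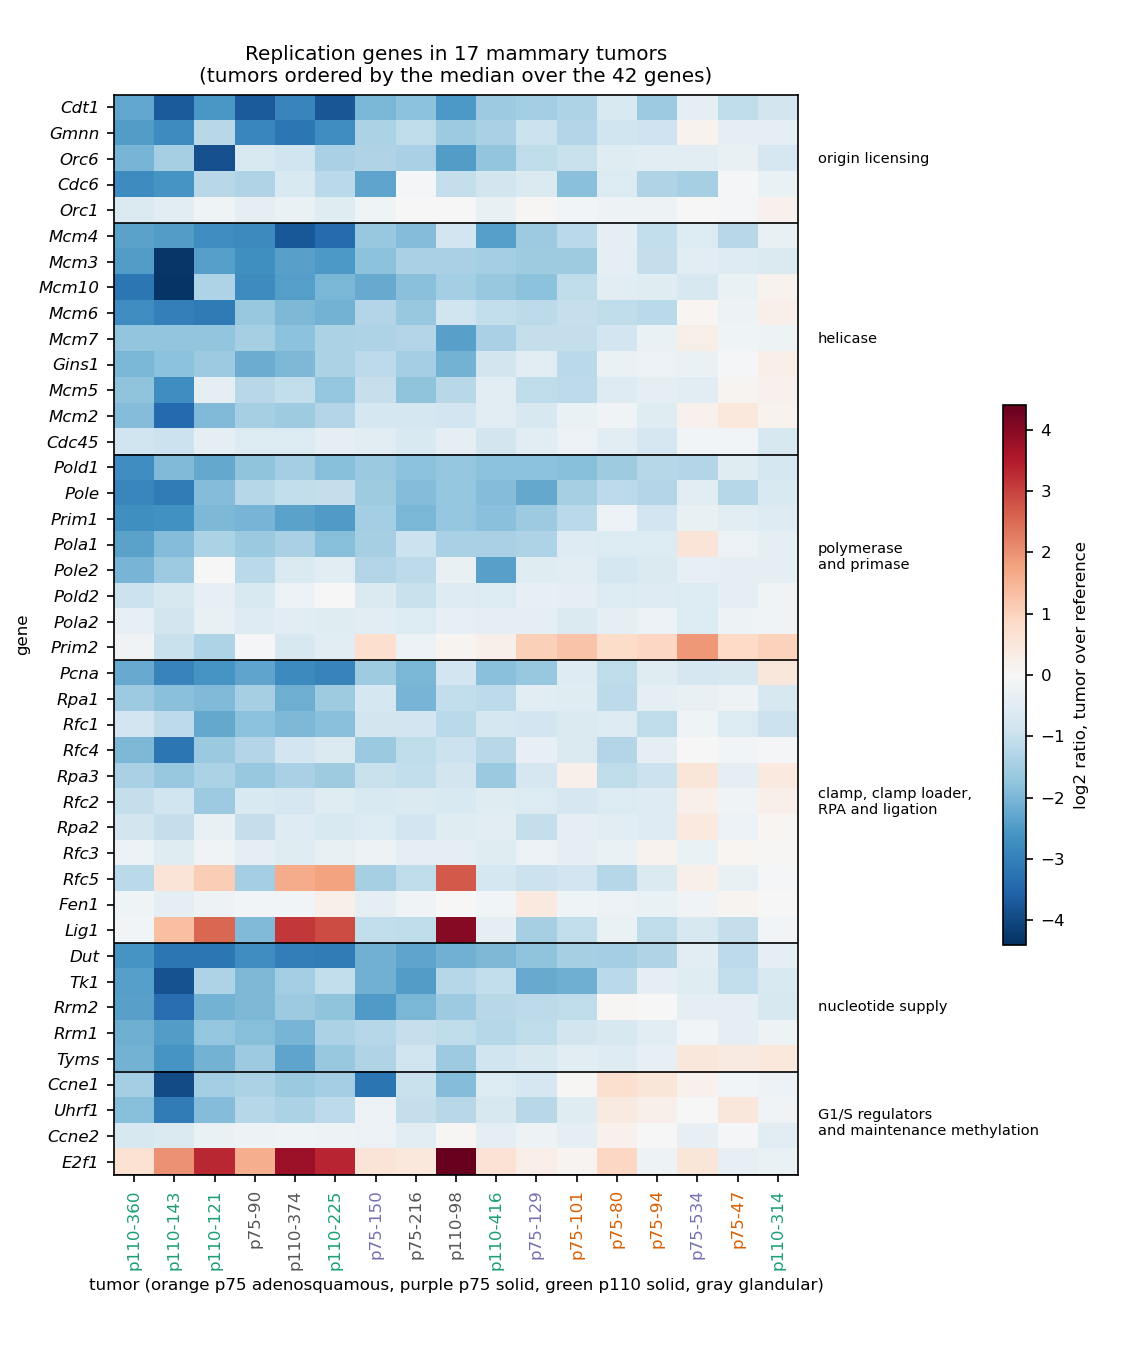
Log2 ratio of tumor over reference for the 42 genes (rows, grouped by role) in the 17 tumors (columns, ordered by their median), with red above and blue below the reference. Most rows darken together towards p110-143 and p110-360, while E2f1, Lig1 and Rfc5 are red in p110-98, p110-121, p110-143, p110-225 and p110-374.

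Among licensing genes, Cdt1 was -0.40 in p75-534 and -0.81 in p110-314, and between -3.76 and -3.70 in p110-225, p75-90 and p110-143. Its inhibitor Gmnn had a like order, from 0.15 in p75-534 to -3.18 in p110-374. Orc6, a subunit of the origin recognition complex, was -3.85 in p110-121, and its next value was -2.45 in p110-98. Cdc6 was measured in 8 tumors only, where it ranged from -1.47 in p75-534 to -0.05 in p75-216, so no difference between groups is given for it.

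All 6 Mcm ring genes were measured in at least 13 tumors. Over the tumors in which it was measured, each was lowest in a tumor of the p110 transgene, Mcm3 and Mcm5 in p110-143 (-4.27 and -2.73), Mcm2 and Mcm6 in p110-121 (-1.94 and -3.11), Mcm4 in p110-374 (-3.74) and Mcm7 in p110-98 (-2.40). Mcm2 was not well above background in p110-143. Their highest values, between -0.41 and 0.47, were in p75-47, p75-80, p75-534 and p110-314. Of the GINS complex, Gins1 ran from -2.19 in p75-90 to 0.29 in p110-314.

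Pold1, the catalytic subunit of polymerase δ, was below the reference in all 17 tumors (-2.73 to -0.55), as was Pole of polymerase ε, at -2.86 to -0.45 in the 15 tumors in which it was measured. Pola1 of polymerase α was 0.57 in p75-534 and between -2.36 and -0.25 in the rest. The primase subunits differed: Prim1 was between -2.70 and -0.24, and Prim2 between -1.37 and 1.90.

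Nucleotide supply genes were highest in different tumors. Rrm2, the S-phase subunit of ribonucleotide reductase, was near the reference in p75-80 (0.05) and p75-94 (-0.01) and lowest, among the 14 tumors in which it was measured, in p75-150 (-2.49). It was not well above background in p110-143. Tk1, which recycles thymidine, was -0.39 in p75-94 and -3.83 in p110-143. Tyms, which makes thymidylate, was 0.50 in p75-534, 0.45 in p110-314 and 0.39 in p75-47, the only tumors above the reference.

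Adenosquamous carcinomas were compared with solid carcinomas among the 7 p75 tumors, to ask whether squamous histology goes with more replication RNA. No gene passed at an adjusted p of 0.05 with limma (0%) of 28786 genes tested, nor any of the 42. At an unadjusted p of 0.05 there were 818 genes (2.84%), and 0 of the 42 replication genes. Values of the groups did not overlap for 0 of the 42 and for 5.11% of all genes. The median difference of the 42 genes was 0.15, with 30 higher in adenosquamous carcinomas, against a median of -0.01 over all genes. Over the 36 genes measured in more than 2 tumors it was 0.20, with 26 higher. By role, among these, 7 of 8 helicase genes, 5 of 6 polymerase and primase genes and 5 of 5 nucleotide supply genes were higher, with medians of 0.31, 0.20 and 0.25, and 4 of 10 clamp, RPA and ligation genes. The 5 largest differences were those of Ccne1, Rrm2, Mcm10, Uhrf1 and Pcna.

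Ccne1, the cyclin that drives entry into S phase, was -0.13 in p75-47, 0.69 in p75-80, 0.54 in p75-94 and 0.05 in p75-101, and 0.19 in p75-534, -0.75 in p75-129 and -3.21 in p75-150. The groups overlapped, and the difference of 1.54 ± 0.88 (SE) did not pass (limma adjusted p = 0.9999; exact permutation p = 0.0857, where the smallest possible was 0.0286). Rrm2 differed by 0.98 ± 0.62, Mcm10 by 0.95 ± 0.84, Uhrf1, which keeps DNA methylation through replication, by 0.65 ± 0.60, and Pcna by 0.59 ± 0.69. Of the other genes followed in every comparison, Tk1 differed by 0.43, Mcm2 by 0.31, Pola1 by 0.24, Cdt1 by 0.13, Gmnn by -0.14 and E2f1 by -0.37, each smaller than its SE. Without p75-150, Ccne1 differed by 0.57, Rrm2 by 0.40, Mcm10 by 0.62, Pcna by 0.47 and Uhrf1 by 0.77, and without p75-129 Uhrf1 differed by 0.29. Leaving out p75-150 turned the sign of the median, to -0.05. It was 0.43 without p75-534, 0.07 without p75-47 and 0.24 without p75-101, and centering the arrays on their median in place of loess gave -0.13. Squamous markers were higher in the adenosquamous carcinomas, 8 of the 8 measured in more than 2 tumors with a median of 1.30, and fibroblast markers too, 7 of 8 with a median of 1.11. Their part in the result was not tested.

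The p110 solid carcinomas were compared with the p75 solid carcinomas, 6 tumors against 3, to ask whether the isoforms differ. The p75 solid carcinomas serve as the comparison group here as well. Most of the replication genes were lower in p110 tumors, but none passed. Limma called 0 of 28786 genes (0%) and 0 of the 42, with a smallest adjusted p of 0.59. The median difference was -0.57, and 36 of 42 genes were lower, where 51.1% of all genes were lower with a median of 0.00. Over the 36 genes measured in more than 2 tumors it was -0.68, with 32 lower. Among these, 8 of 8 helicase genes were lower (median -0.82), as were 5 of 5 nucleotide supply genes (-0.70), 3 of 4 licensing genes (-0.99), 6 of 6 polymerase and primase genes (-0.66) and 8 of 10 clamp, RPA and ligation genes (-0.53). At an unadjusted p of 0.05 there were 1919 genes (6.67%) and 3 of the 42, namely Lig1, Prim2 and Rpa1, a share near that of all genes. Rpa1 was picked after its value was seen.

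Lig1, the replicative DNA ligase, was 1 of 4 of these 36 genes counted as higher in p110 tumors, with E2f1, Rfc5 (0.95) and Cdc6. The sign of Cdc6 is not read, since among p110 solid carcinomas it was measured in p110-314 and p110-416 only. Lig1 was -1.08 in p75-150, -1.47 in p75-129 and -0.69 in p75-534. It ranged from -0.39 to 2.86 (median 0.60) in the 6 p110 tumors, so the groups did not overlap. The groups did not overlap for 1 of 42 replication genes and for 3.43% of all genes. The difference was 2.09 ± 0.71 (limma adjusted p = 0.64; exact permutation p = 0.0476, smallest possible 0.0119). It was 1.25 without p110-121 and p110-225, the tumors of weak tumor color, and 1.13 with median centering. Prim2 was 0.74 in p75-150, 1.03 in p75-129 and 1.90 in p75-534, and between -1.37 and 0.999 (median -0.34) in p110 tumors, a difference of -1.52 ± 0.45 (limma adjusted p = 0.59) in overlapping groups, with 4 of the 6 p110 tumors measured. Rpa1, part of the single-strand binding complex RPA, differed by -0.94 ± 0.27 (limma adjusted p = 0.59). The other large differences were those of Mcm6 (-1.19 ± 0.68), E2f1 (1.15 ± 0.75) and Cdt1 (-1.14 ± 0.62). E2f1 differed by 0.28 without the tumors of weak tumor color, 0.51 with median centering and 5.80 with the tumor color alone. Gmnn differed by -1.10, Mcm2 by -1.04, Pola1 by -0.82, Pcna by -0.68, Rrm2 by -0.57, Ccne1 by -0.29 and Tk1 by -0.11, with Mcm2 measured in 4 of the 6 p110 tumors. Rrm2 and Ccne1 were not measured in p110-143. Without p75-534, Gmnn differed by -0.66, Pola1 by -0.16, Pcna by -0.39, Rrm2 by -0.10, Ccne1 by 0.43 and Tk1 by 0.44. Without p75-150, Gmnn differed by -1.43, Pola1 by -1.18, Rrm2 by -1.14 and Ccne1 by -1.27.

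The size of the p110 difference hung on single tumors. The median was -0.52 without p110-121 (37 of 42 genes lower), -0.85 without p110-314 and -0.23 without p75-534. Centering on the median gave -1.65, and a fit of all 17 tumors with the tumor class as a covariate -0.36. Without p110-121, Lig1 differed by 1.79, Prim2 by -1.31, Rpa1 by -0.84, Mcm6 by -0.96 and E2f1 by 0.81. The role medians over the 36 genes were then -0.81 for licensing, -0.76 for helicase and -0.75 for polymerase and primase genes. They were -0.35 for clamp, RPA and ligation and -0.67 for nucleotide supply genes. Of the licensing genes, Orc6, Cdt1 and Gmnn were lower, and the sign of Cdc6, measured in few p110 tumors, is not read. Epithelial markers differed by a median of -0.83 (5 of 6 lower), and by -0.18 (4 of 6 lower) without p110-121. Of the markers below, those measured in more than 2 tumors are counted. Fat cell markers differed by a median of 0.69 (5 of 5 higher), and by 0.93 (4 of 5 higher) without it. Immune cell markers differed by 0.31 (7 of 10 higher), and by -0.07 (4 of 10 higher) without it. Endothelial markers differed by 0.81 (5 of 5 higher), and by 1.01 without it, and basal and myoepithelial markers by -1.004 (5 of 6 lower), and by -0.68 without it. Their part in the result was not tested.

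The high-Wnt tumors (n = 5) were compared with the low-Wnt tumors (n = 7) in a fit of all 17, to ask whether Wnt expression goes with replication RNA. The clusters were drawn from these same arrays. Of 28786 genes, 53 passed (0.184%), of which 40 lay above and 13 below the low-Wnt level, and 0 of the 42. The 53 became 8 without p110-360 or p110-374, 90 without p75-534 and 0 with no background correction. The smallest adjusted p of a replication gene was 0.11. Their median difference was 0.18, with 29 higher, against 0.01 over all genes, and 0.23 (24 higher) over the 36 genes measured in more than 2 tumors. At an unadjusted p of 0.05 there were 3424 genes (11.9%) and 2 of the 42. One was Ccne2, picked after its value was seen. It was not well above background on all arrays of any tumor, so no difference is given for it, and it was also the 1 replication gene whose clusters did not overlap, against 1.65% of all genes. The other was Cdc6, measured in 3 of 5 and 3 of 7 tumors, so no difference is given for it either. It was -0.07 in p75-47, -0.60 in p75-80 and -1.32 in p75-94 of the high-Wnt cluster, and -1.47 in p75-534, -0.31 in p110-314 and -0.80 in p110-416 of the low-Wnt cluster, so the measured values overlapped. A dimmer probe of Cdc6, which was measured in 12 tumors, correlated with it only weakly over the 17 tumors (r = 0.26, a description).

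Among other named genes, Lig1 differed by 1.02 ± 1.07 and Rrm2 by 0.93 ± 0.49. Ccne1 differed by 0.91 ± 0.70, E2f1 by 0.89 ± 0.84, Tk1 by 0.78 ± 0.47, Mcm2 by 0.32, Pola1 by 0.14, Gmnn by -0.25, Cdt1 by -0.27 and Pcna by -0.27. Without p110-143, Ccne1 differed by 0.47, Rrm2 by 0.65, Tk1 by 0.45 and Mcm2 by -0.095. Ccne1 rose to 1.22 and Mcm2 to 0.56 without p110-374, and Tk1 to 0.999 without p75-534. Ccne1, Rrm2 and Mcm2 were not measured in p110-143 and p110-374, nor was Mcm2 in p110-225. In p75 tumors alone the median of the 42 genes was 0.17 (30 higher), and in p110 tumors alone it was -0.08. Without the tumors of weak tumor color it was 0.60, with 37 of 42 higher, and centering on the median turned it to -0.46. It was 0.11 with the transgene as a block and 0.04 with the tumor color alone, without the reference, where the median of all genes was also 0.04. In the solid carcinomas alone, where 1 tumor (p110-225) is high-Wnt, it was -0.17 with no test. Single tumors moved it as well, to 0.06 without p75-47 or p110-143, 0.31 without p110-225 or p110-314, 0.35 without p75-534 and 0.36 without p110-374. Squamous markers were higher in high-Wnt tumors, 8 of the 8 measured in more than 2 tumors with a median of 1.14, as were 5 of 6 basal (median 1.31) and 7 of 8 fibroblast markers (1.05) so measured. Lower were 5 of 5 fat cell markers (-0.84), 6 of 7 luminal markers (-0.72) and 4 of 5 endothelial markers (-0.97). Their part in the result was not tested. Lig1 and E2f1 turned sign without the tumors of weak color, to -0.51 and -0.50.

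The glandular tumors (n = 4) were compared with all 9 solid carcinomas, with the transgene as a covariate. Limma called 2 of 28786 genes (0.00695%), both higher in glandular tumors, and 0 of the 42. The smallest adjusted p of a replication gene was 0.31. The median difference was -0.14, with 30 of 42 lower, against 0.01 over all genes. Over the 36 genes measured in more than 2 tumors it was -0.17 (26 lower). Among these, 8 of 8 helicase genes (median -0.28) and 5 of 5 nucleotide supply genes (-0.30) were lower. At an unadjusted p of 0.05 there were 3521 genes (12.2%) and 3 of the 42, E2f1, Gins1 and Rpa1, of which Rpa1 was picked after its value was seen. The groups overlapped for 42 of 42 genes and did not overlap for 0.563% of all genes.

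E2f1, the transcription factor of G1 to S genes, was 4.38 in p110-98, 3.78 in p110-374, 1.61 in p75-90 and 0.48 in p75-216, and between -0.29 and 3.36 (median 0.65) in solid carcinomas. It differed by 1.62 ± 0.64 (limma adjusted p = 0.33). A dimmer E2f1 probe differed by -0.15, and it turned the sign also for p110 against p75 (-0.17) and high-Wnt against low-Wnt tumors (-0.13), while it gave -0.36 for adenosquamous carcinomas. Gins1 was -2.09 in p110-98, -1.98 in p110-374, -2.19 in p75-90 and -1.50 in p75-216, and between -2.02 and 0.29 in solid carcinomas, a difference of -0.99 ± 0.37 (limma adjusted p = 0.31). It was measured in 2 of the 4 glandular tumors, and its readings in p110-98 and p110-374 were not well above background. Rpa1 differed by -0.62 ± 0.29, Lig1 by 1.22 ± 0.69, Gmnn by -0.87 ± 0.50, Rfc5 by 0.82 ± 0.59 and Cdt1 by -0.78 ± 0.54. Pcna differed by -0.27, Mcm2 by -0.16, Pola1 by -0.15, Rrm2 by -0.10, Ccne1 by -0.09 and Tk1 by -0.06, with Mcm2, Pola1 and Rrm2 measured in 2 of the 4 glandular tumors. The median was -0.18 without p110-121, where 8 of 8 helicase genes and 5 of 5 nucleotide supply genes were lower, -0.59 in p75 tumors alone (39 of 42 lower) and 0.09 in p110 tumors alone. Equal spread on all arrays made it 0.08, and median centering -1.46. It was -0.45 with the scanner software's own signals, -0.42 with the tumor color alone, -0.06 with no background correction, -0.08 without the transgene covariate, and -0.05 and -0.23 with the tumor in Cy5 or Cy3 alone. It was -0.29 without p110-98, -0.30 without p110-143, -0.05 without p75-90 and -0.03 without p110-314 or p75-534. E2f1 differed by 0.57 in p75 tumors alone and 2.46 in p110 tumors alone, and Lig1 by -0.46 and 2.56, and these splits were not tested against each other. Basal and myoepithelial markers were higher in the glandular tumors, 5 of the 6 measured in more than 2 tumors with a median of 1.85, as were 5 of 6 epithelial (median 1.01) and 6 of 7 luminal markers (0.84) so measured. Fibroblast markers, 5 of 8 with a median of -0.60, and fat cell markers, 5 of 5 with a median of -0.59, were lower. Endothelial markers had a median of -1.05 (3 of 5 lower) and squamous markers one of 0.49 (7 of 8 higher). Without p110-121 the medians were 1.81 for basal, 0.62 for epithelial, 0.98 for luminal (5 of 7 higher), -0.45 for fibroblast and -0.76 for fat cell markers. They were -1.21 for endothelial and 0.51 for squamous markers. Their part in the result was not tested.

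**Figure D3:**
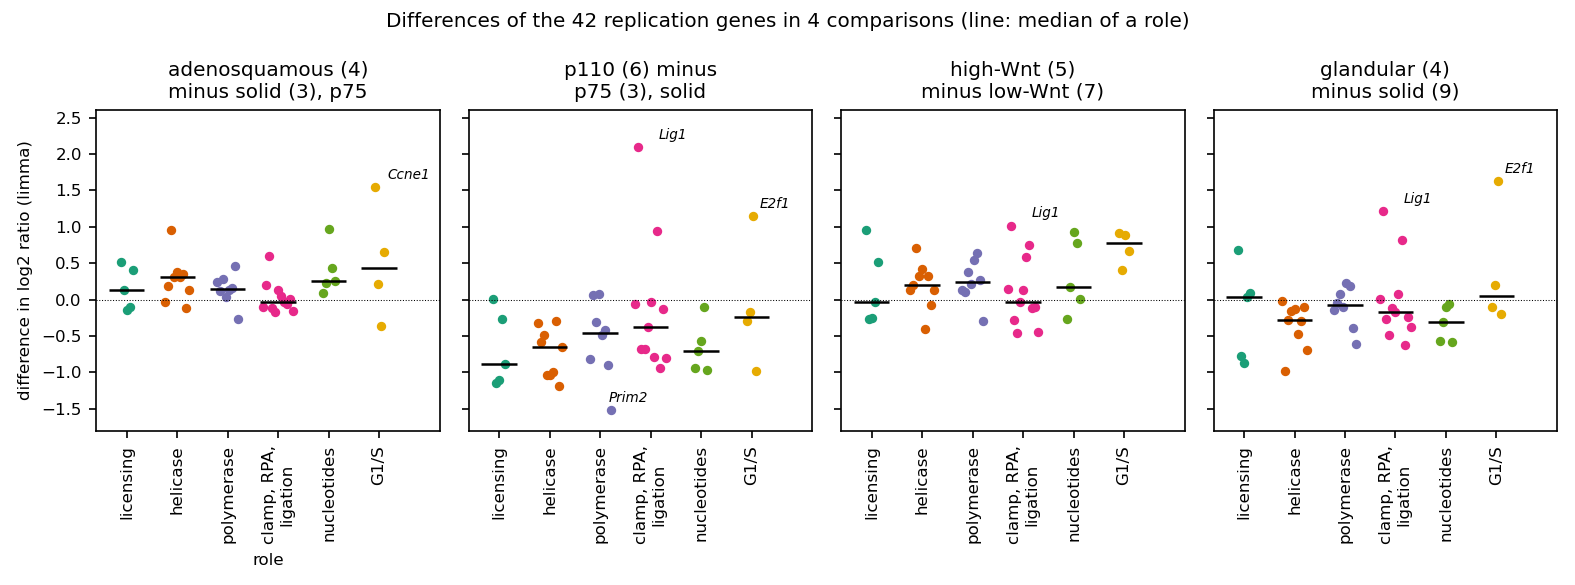
Difference in log2 ratio from limma for each of the 42 genes in the 4 comparisons, grouped by role, with a line at the median of a role. Most points lie below 0 for p110 against p75 solid carcinomas (median -0.57), where Lig1 (2.09) and E2f1 (1.15) stand above, and no point passed after adjustment.

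Beyond the 42 genes, 28 other replication genes measured in more than 2 tumors had median differences of 0.07, -0.26, 0.23 and -0.0033 in these comparisons, in the order adenosquamous against solid, p110 against p75, high-Wnt against low-Wnt and glandular against solid. One of them passed. Pold3, a subunit of polymerase δ, was 0.43 ± 0.06 (SD, n = 5) in high-Wnt tumors, against 1.56 ± 0.29 (n = 7) in the low-Wnt cluster, and differed by -1.12 ± 0.21 (limma adjusted p = 0.047). It passed under 7 of 30 other settings, with differences of -1.94 to -0.86 and limma adjusted p of 0.0094 to 0.69. It was 0.25 in p110-98 and 0.27 in p110-121, also of weak tumor color. The 18 S-phase regulators outside the list so measured had medians of 0.23, -0.13, 0.02 and -0.17, and 13 further nucleotide supply genes 0.14, -0.42, 0.09 and -0.25, with no gene of either list passing. For 10 proliferation markers they were 0.25 (9 of 10 higher), -0.61 (8 lower), 0.38 (8 higher) and -0.21 (7 lower), and none passed. Of the cell type markers, 1 gene passed: the squamous keratin Krt16 was higher by 4.76 ± 0.80 in high-Wnt tumors (limma adjusted p = 0.030), 3 of which were adenosquamous. It passed under 16 of 30 other settings, with differences of 2.04 to 6.77 and limma adjusted p of 0.0012 to 0.59. Cux1 itself ranged from -2.12 in p75-216 to -0.33 in p75-94. It differed by 0.44, 0.06, 0.80 and -0.04 in the same order, and none of these passed (limma adjusted p = 0.21 for high-Wnt tumors). Whether its probe detects the transgene is not given in the sources used here.

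The proliferation marker Mki67, which codes for the Ki-67 antigen of cycling cells, was followed beside the replication genes. It was highest in p110-314 (0.28) and p75-534 (0.12) and lowest in p110-143 (-3.60) and p75-90 (-3.09). It differed by 0.25, -0.92, 0.03 and -0.999 in the 4 comparisons and passed in none. Its correlation over the 17 tumors was computed for the 10 genes followed in every comparison, with permutation p-values, of which 1e-05 is the smallest these can give. Cdt1 was closest (Pearson r = 0.94, permutation p = 1e-05, adjusted over 10 relations 3.33e-05; Spearman rho = 0.93, permutation p = 1e-05). Gmnn (r = 0.88, rho = 0.88) and Mcm2 (r = 0.87, rho = 0.90) had the same p-values. The r was 0.82 for Rrm2, 0.81 for Pola1, 0.78 for Pcna, 0.77 for Ccne1 and 0.67 for Tk1, each with an adjusted permutation p of at most 0.0034. Their rho was 0.79, 0.84, 0.78, 0.81 and 0.58, with adjusted permutation p of at most 0.0173. The share of all genes that correlate as closely with Mki67 was not computed. Whether the replication genes stand apart from other genes in this is therefore not known. Cdc6, measured in 8 of the tumors, did not pass (r = 0.45, adjusted permutation p = 0.0738; rho = 0.40, adjusted permutation p = 0.109). Mcm2 was measured in 13 tumors, Rrm2 in 14, and Pola1 and Ccne1 in 15, and their other readings also enter these correlations. The lowest readings of Mcm2 and Ccne1, in p110-143, were not well above background.

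The relations held, in sign, within each transgene, which is also within each scan year. In p75 tumors (n = 9) r was 0.96 for Cdt1 (exact permutation p = 0.000196), 0.93 for Gmnn, 0.89 for Mcm2 and 0.08 for Cdc6. In p110 tumors (n = 8) it was 0.90 for Cdt1 (exact permutation p = 0.0038), 0.80 for Gmnn, 0.85 for Mcm2 and 0.70 for Cdc6. Of these tumors, p110-98, p110-143, p110-225 and p110-374 had Mcm2 readings that were not well above background. Without p110-143 and p75-90, the tumors farthest from the median of Mki67, r was 0.90 for Cdt1, 0.84 for Gmnn, 0.83 for Mcm2 and 0.74 for Pcna, but 0.50 for Tk1 and 0.28 for Cdc6. For the first 4 of these genes, without p110-121 it was 0.94, 0.88, 0.89 and 0.79. The weaker relations within a transgene included Ccne1 in p75 tumors (r = 0.57, exact permutation p = 0.116) and Pcna in p110 tumors (r = 0.71, exact permutation p = 0.0559). The brighter E2f1 probe went the other way, with r = -0.64 (adjusted permutation p = 0.00649; rho = -0.73, adjusted permutation p = 0.0014). Without p110-143 and p75-90 its r was -0.74. Within the transgenes it was -0.63 among p75 tumors (exact permutation p = 0.0762) and -0.57 among p110 tumors (exact permutation p = 0.145). The sign turned with a dimmer E2f1 probe, whose r with Mki67 was 0.55 (a description), so no direction is settled for E2f1.

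**Figure D4:**
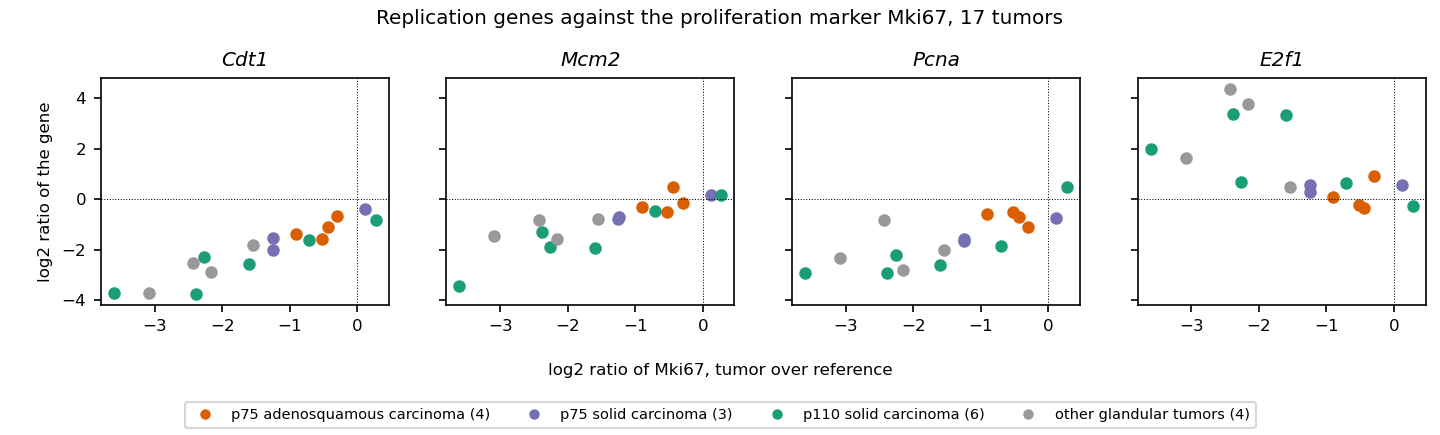
Log2 ratio of Cdt1, Mcm2, Pcna and the brighter E2f1 probe (vertical axes) against that of Mki67 (horizontal axes) in the 17 tumors, colored by group. Cdt1, Mcm2 and Pcna climb with Mki67 (r of 0.94, 0.87 and 0.78), and the brighter E2f1 probe falls (r = -0.64), where the dimmer one, not drawn, has r = 0.55.

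E2f1 was highest in the 4 tumors of weak tumor color. It was between 2.00 and 4.38 in p110-98, p110-374, p110-225, p110-121 and p110-143, and at most 1.61 in the rest. Lig1 was between 1.33 and 4.01 and Rfc5, a clamp loader subunit, between 0.57 and 2.70 in the same 5 tumors, and in the other 12 they were at most -0.12 and 0.23. Over 17 tumors, relations with the log2 brightness of the reference over the tumor color were computed for the 10 genes followed in every comparison, and for Lig1 and Rfc5. The r was 0.96 for E2f1 (permutation p adjusted over 10 relations = 1e-04; rho = 0.91, adjusted permutation p = 2e-04), 0.86 for Lig1 (rho = 0.61) and 0.78 for Rfc5 (rho = 0.35). Lig1 and Rfc5 were picked after their high values in these tumors were seen, so theirs are descriptions with no test. The r was negative for Cdt1 (-0.70, adjusted permutation p = 0.0082; rho = -0.74) and Gmnn (-0.67, adjusted permutation p = 0.0128; rho = -0.75). The other 7 genes did not pass by r, Pcna at -0.54 among them (adjusted permutation p = 0.0623), although Mcm2, Pola1, Ccne1 and Pcna passed by rho (-0.65, -0.64, -0.64 and -0.63, with adjusted permutation p of 0.0114 to 0.0121). Some readings at the weak end of tumor color were not well above background. These were Mcm2 in p110-98, p110-225 and p110-374, Pola1 in p110-98 and p110-374, and Cdt1 and Ccne1 in p110-374. The share of all genes so related to brightness was not computed.

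Without p110-98 and p110-374, the 2 farthest from the median brightness, r was 0.94 for E2f1, 0.73 for Lig1 and 0.57 for Rfc5. Within p75 tumors, where brightness varied less, r was 0.77 for E2f1 (exact permutation p = 0.0171), and -0.32 for Lig1 and -0.66 for Rfc5. Within p110 tumors it was 0.98 for E2f1 (exact permutation p = 2.48e-05), 0.97 for Lig1 and 0.90 for Rfc5. Without p110-121 it was 0.97 for E2f1, 0.86 for Lig1, and 0.77 for Rfc5. For Cdt1 and Gmnn r was -0.78 and -0.68 without the 2 farthest, -0.63 and -0.77 within p75 tumors (exact permutation p = 0.0826 and 0.0248), and -0.68 and -0.53 within p110 tumors (exact permutation p = 0.0649 and 0.169). A dimmer E2f1 probe, measured in 11 tumors against 16 for the brighter one, showed none of this. It was below the reference in all 17 tumors (-2.14 to -0.26), its r with brightness was 0.06 and its r with the brighter probe 0.10, both given as descriptions. The part of tumor color in the differences of E2f1, Lig1 and Rfc5 was not tested.

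**Figure D5:**
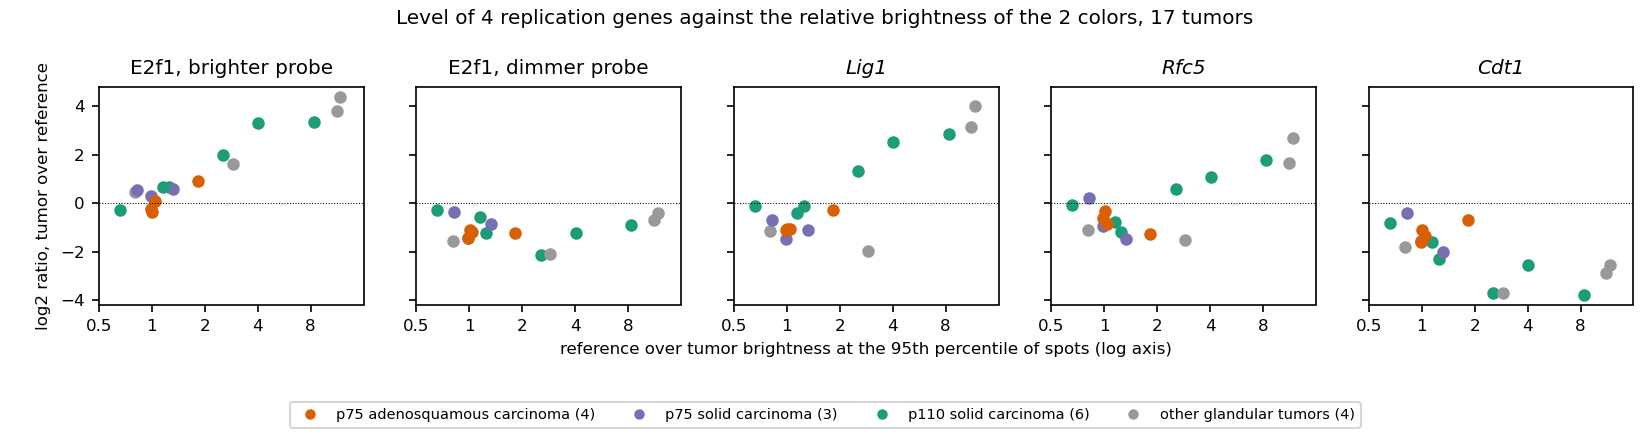
Log2 ratio of the brighter and dimmer E2f1 probes, Lig1, Rfc5 and Cdt1 (vertical axes) against the brightness of the reference over the tumor color at the 95th percentile of spots (horizontal log axes) in the 17 tumors. The brighter E2f1 probe climbs to 4.38 at the weakest tumor color (r = 0.96), while the dimmer one stays between -2.14 and -0.26.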

How the data were processed

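RNA of 17 tumors was profiled by the authors on 38 Agilent 2-color arrays (15 slides, 10 scan days). The deposited scanner files hold intensity and local background for 45018 spots, measured by the authors with Feature Extraction 9.5.3.1 (probes placed on the build mm7:NCBI35:Aug2005 in the file headers) and not normalized. The deposited table holds log2 ratios of tumor over reference. Correction by normexp with offset 50, loess and averaging of the arrays of a tumor gave the same values (largest difference 4.98e-08), and these were used. No column lacked a sample. Amplification in 2 rounds and weak tumor color can compress or bend ratios, and the number of arrays limits the precision, for which no interval was made.

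Groups came from the labels, and the Wnt clusters from the study's figure. Each comparison was a limma 3.58.1 contrast (lmFit and eBayes, R 4.3.3, statmod 1.5.0) over 28786 genes with Benjamini-Hochberg adjustment and a threshold of 0.05. The histology fit within the p75 and the transgene fit shared 13 tumors and the p75 solid carcinomas, and the Wnt and glandular fits used all 17, so the comparisons are not independent. Differences in means of single genes were also permuted exactly over tumors, and correlations over tumors, all two-sided. The brightest probe stood for a gene. On simulated data, drawn for each gene on its own from a normal distribution, large changes were called with the right sign and small ones mostly missed. Such data hold no shifts shared by many genes of a tumor, so they do not measure what was missed here. Named genes were 10 followed in every comparison (Mcm2, Pcna, Pola1, Rrm2, Ccne1, E2f1, Cdt1, Gmnn, Cdc6 and Tk1), the 5 largest differences among genes measured in at least 75% of the tumors compared, Mki67, Cux1 and genes of the other lists that passed. Members and lists were chosen with earlier results of these data known. Promoter letters were read from a RefSeq table. Alternatives covered background correction, normalization, dye, probe, filter, eBayes, blocks, groups and each tumor left out, and those on weak tumor color, single transgenes, correlations, p110-121, measured genes, Krt16 and Pold3 were added after seeing the data. Figures were drawn with matplotlib 3.10.9.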

Additional observations from a re-analysis of the deposited data

Results flagged for a closer look

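Within groups of 4 to 9 tumors, 264 sets of values (42 genes, their median and Mki67, in 6 groups each) were searched for a tumor that stands apart from the nearest other by more than Dixon's 95% critical value. It found 12 (4.55%), where chance gives about 1 in 20. Among the 6 p110 solid carcinomas, p110-314 stood above the others for Mcm4 (-0.31, next -2.35), Mcm7 (-0.21, next -1.40), Pcna (0.49, next -1.84) and Rpa3 (0.43, next -1.41), and p110-143 stood below them for Ccne1 (-3.92, next -1.54), a reading not well above background in that tumor. Among the 7 low-Wnt tumors, p110-143 stood above for Lig1 (1.33, next -0.12) and E2f1 (2.00, next 0.66). Its reference was 2.55 times as bright as its tumor color, the most of that cluster. Among all 9 solid carcinomas, p110-121 was low for Orc6 (-3.85, next -2.05). Among the 4 adenosquamous carcinomas, p75-80 was high for Mcm4 (-0.42, next -1.10) and Lig1 (-0.29, next -1.06), p75-47 high for Pola1 (-0.25, next -0.57) and p75-94 low for Rfc1 (-1.10, next -0.63).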

How the results depend on the processing

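The count of replication genes that passed was 0 in each comparison under every alternative run, while medians, single genes and correlations moved. E2f1 ran from -1.13 to 1.42 for adenosquamous carcinomas and from 0.28 to 5.80 for p110 tumors, and Lig1 from -0.51 to 3.04 for high-Wnt tumors. With all 9 solid carcinomas as the comparison group, the adenosquamous median was 0.57. Median centering in place of loess gave -1.65 for p110 against p75, -0.46 for high-Wnt against low-Wnt and -1.46 for glandular tumors, and it turned the correlation of Rfc5 with brightness to -0.13. It also gave -0.39 for E2f1 with Mki67, which then did not pass, and so did the mean of all probes (-0.36). Lig1 with brightness was 0.44 with median centering. Tk1 with Mki67 (0.23) and Cdt1 with brightness (-0.54) lost their calls with equal spread. Pcna with brightness passed with the scanner software's signals (-0.56), median centering (-0.92), the tumor in Cy3 alone (-0.54) and the tumor color alone (-0.52). Without single tumors, the difference of Ccne1 ran from 0.57 to 2.27 for adenosquamous carcinomas, that of Lig1 from 1.73 to 2.38 for p110 tumors and from 0.41 to 1.47 for high-Wnt tumors, and that of E2f1 from 1.24 to 2.02 for glandular tumors. The cause of these shifts was not tested. Leaving out single tumors, the median ran from -0.05 to 0.43 for adenosquamous carcinomas, from -0.85 to -0.23 for p110 tumors, from 0.06 to 0.36 for high-Wnt tumors and from -0.30 to -0.03 for glandular tumors, with 0 replication genes passing. Over all genes, where 0, 0, 53 and 2 passed, 0 to 5, 0 to 2, 8 to 90 and 0 to 21 then did, with 8 high-Wnt genes without p110-360 or p110-374 and 90 without p75-534, and 0 to 1, 0 to 132, 0 to 346 and 0 to 17 under the other alternatives. The slide as a random block could not be fitted for the adenosquamous and transgene comparisons. No paired analysis was possible because the tumors carry mouse numbers and no replicate number shared between groups. Dim probes set a further limit, since 9 of 42 genes were measured in under 9 tumors.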
